A study of Mus musculus with 19 samples.

Results

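Gm47301, Gm47285, Gm47276 and Gm47281 are 4 of the 2198 mouse miRNA hairpins of the GENCODE annotation that were searched in these libraries. They were chosen by the length of their reads in the same libraries, which exceeded that of mature miRNAs, so their level and read length by method are given as a description, with no test. Reads of any length that matched a hairpin in sense, with at most 1 mismatch, were taken as its reads. Small RNA was sequenced from cauda epididymal sperm of C57BL/6J male mice that were 8 weeks old at the start and were gavaged daily for 4 weeks with corn oil, alone (control) or with dicyclohexyl phthalate (DCHP), a plasticiser, at 10 mg/kg body weight. The sample titles name a library as control or treated, taken here as DCHP, whereas the treatment label names DCHP for all 19 samples. The RNA was sequenced by traditional small RNA-seq (5 control and 5 DCHP libraries) and by PANDORA-seq (4 control and 5 DCHP libraries), in which the enzymes AlkB and T4PNK remove RNA methylation and repair fragment ends before adapters are ligated. Somatic cells were lysed before RNA was taken, and each library held 21588335 to 56506344 reads of 15 to 45 nt. In bulk RNA, fewer cells of a type and less RNA per cell cannot be told apart.

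MicroRNA hairpins are RNA stems with a loop from which Dicer cuts a short duplex, so that a genuine hairpin gives reads of a narrow range of lengths with a fixed 5′ end on each arm. 5S rRNA is the small RNA of the large ribosomal subunit that RNA polymerase III transcribes from many gene copies, most of them in tandem arrays, with further copies and pseudogenes spread over the genome. Fragments of rRNA and tRNA are abundant in mature sperm, and many carry modified bases or ends that keep them out of standard small RNA libraries.

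In the annotation, each of the 4 hairpins lay whole, and on the same strand, within an annotated 5S rRNA gene. No other hairpin did so: 0 of the remaining hairpins lay within an annotated rRNA gene. The count compared positions in the annotation, so a hairpin of rRNA sequence outside an annotated rRNA gene would not be in it. It does not show whether other hairpins share sequence with rRNA. On GRCm38, Gm47301 (ENSMUSG00000106221.1) is at chr4:149817764-149817823 on the plus strand, inside n-R5s193. Gm47285 (ENSMUSG00000106297.1) is at chr12:85718503-85718563 on the minus strand, inside n-R5s64. Gm47276 (ENSMUSG00000104844.1) is at chr16:41217777-41217836 on the plus strand, inside Gm26381, and this 5S copy lies in an intron of Lsamp, a neuronal cell adhesion gene. Gm47281 (ENSMUSG00000106618.1) is at chrY:991657-991716 on the minus strand, inside n-R5s1. The hairpins are 60, 61, 60 and 60 nt long and begin at base 33 of their 5S gene.

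The 4 hairpin sequences are shown because they decide what a short read can tell apart. They were taken from the GENCODE transcripts and are printed 5′ to 3′, with capitals at the bases that differ from the commonest annotated 5S sequence.
Gm47301: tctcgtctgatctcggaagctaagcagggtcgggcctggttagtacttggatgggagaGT
Gm47285: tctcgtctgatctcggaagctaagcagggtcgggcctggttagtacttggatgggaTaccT
Gm47276: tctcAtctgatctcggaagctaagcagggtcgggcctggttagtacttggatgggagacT
Gm47281: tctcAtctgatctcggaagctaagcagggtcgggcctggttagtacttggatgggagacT
Gm47276 and Gm47281 are identical and therefore have identical values, except in an alternative that extends each hairpin by up to 20 nt of its own 5S gene. The commonest annotated 5S sequence is 119 nt long and is carried by 32 annotated genes. Against this sequence, counting from 1 at the 5′ end of the hairpin, Gm47301 differed by C59G and C60T, Gm47285 by G57T and G61T, and Gm47276 and Gm47281 by G5A and C60T. Identity was 96.67% for the 60 nt hairpins and 96.72% for Gm47285. All differences lie in the first 5 or the last 5 bases, so a read from the middle matches every hairpin and the 5S gene equally.

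Nearly all reads matched the common 5S rRNA sequence as well as a hairpin, and most PANDORA-seq reads matched all 4 hairpins alike. In PANDORA-seq, 98.5% ± 0.264 (SD, n = 4) of the reads on the hairpins in controls and 97.8% ± 0.208 (n = 5) in DCHP libraries matched all 4 hairpins equally. In traditional RNA-seq these shares were 63.4% ± 5.796 (n = 5) and 49.2% ± 5.91 (n = 5), and the remaining reads matched some of the hairpins better than others. Of the reads, 99.95% to 99.97% in the PANDORA-seq libraries and 97.9% to 99.4% in the traditional ones matched the common 5S sequence as well as they matched a hairpin. A better match to a hairpin than to this 5S sequence was found for 0.0011% to 0.012% of the reads in PANDORA-seq libraries and for 0.075% to 0.244% in traditional ones. The reverse strand of the hairpins was read by 0 to 1 reads in a PANDORA-seq library and 0 to 3 in a traditional one.

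At positions 5, 57, 59 and 60, where the hairpins differ from 5S rRNA, over 97% of the reads carried the 5S base in every group. Over all reads of a group that covered hairpin position 5, G, the base of 5S rRNA, was read in 99.57% (PANDORA-seq control), 99.62% (PANDORA-seq DCHP), 99.57% (traditional control) and 99.62% (traditional DCHP), while A marks Gm47276 and Gm47281. Of the other changed bases, T at position 57 marks Gm47285, G at position 59 marks Gm47301, and T at position 60 marks Gm47301, Gm47276 and Gm47281. At position 57 the 5S base G was read in 99.1%, 99.2%, 99.5% and 99.5% in the same order. At position 59 the 5S base C was read in 99.8%, 99.6%, 99.6% and 99.7%. Position 60 was covered by 28 to 75 reads in each PANDORA-seq control library, and C was read in 97.3%, 97.4%, 99.1% and 98.1%. Position 61, where T marks Gm47285, was covered by 1, 0, 6 and 19 reads in the 4 groups, and T was read in 1 of 1 in PANDORA-seq controls, 5 of 6 in traditional controls and 9 of 19 in traditional DCHP libraries. Reads were admitted with at most 1 mismatch to a hairpin, so that a read of the common 5S sequence that runs past position 60 was not counted.

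Counting each read once over the 4 hairpins, PANDORA-seq control libraries held 7263, 4388, 4401 and 4893 reads per 1000000 total reads (RPM), and PANDORA-seq DCHP libraries held 3557, 3869, 3104, 5055 and 4875 RPM. Control replicate 1 was the highest of the PANDORA-seq libraries and the exposure groups overlapped. Traditional control libraries held 1203, 519, 1132, 848 and 1857 RPM, and traditional DCHP libraries held 958, 863, 724, 791 and 1962 RPM. Every PANDORA-seq library lay above every traditional library, and within the traditional libraries control replicate 5 and DCHP replicate 5 stood above the rest. The mean was 4601 ± 1194 RPM (SD, n = 9) in PANDORA-seq and 1086 ± 476 RPM (n = 10) in traditional RNA-seq. Numbers of reads behind these values ran from 116066 to 276480 in PANDORA-seq and from 18626 to 63481 in traditional libraries, so counting error is small beside the spread between libraries.

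Among reads on any miRNA hairpin, the 4 Gm hairpins took 25.4% to 51.8% in PANDORA-seq libraries and 0.306% to 3.34% in traditional ones. For ranks, a read was counted for every hairpin it matched equally, so those of the 4 hairpins in PANDORA-seq rest mostly on the same reads. By read count, not divided by length, Gm47301, Gm47285 and the identical pair ranked 2nd to 4th among hairpins in PANDORA-seq, and 16th, 18th and 26th in traditional RNA-seq. Against 5S rRNA the order of the method means was the reverse, but the libraries overlapped. Reads on the hairpins made up 5.92% ± 1.37 (SD, n = 9) of all reads on the hairpins and on annotated 5S genes in PANDORA-seq. In traditional RNA-seq they made up 9.85% ± 3.23 (n = 10). Single libraries ran from 4.32% to 8.80% in PANDORA-seq and from 5.59% to 17.3% in traditional RNA-seq. The levels of other reads differed between methods too. Hairpins of which at least 50% of reads were 20 to 24 nt long, as mature miRNAs are, together held 319 to 1194 RPM in PANDORA-seq and 42195 to 166257 RPM in traditional libraries, while 5S rRNA reads outside the hairpins held 45607 to 115970 RPM and 7996 to 13852 RPM.

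**Figure D1:**
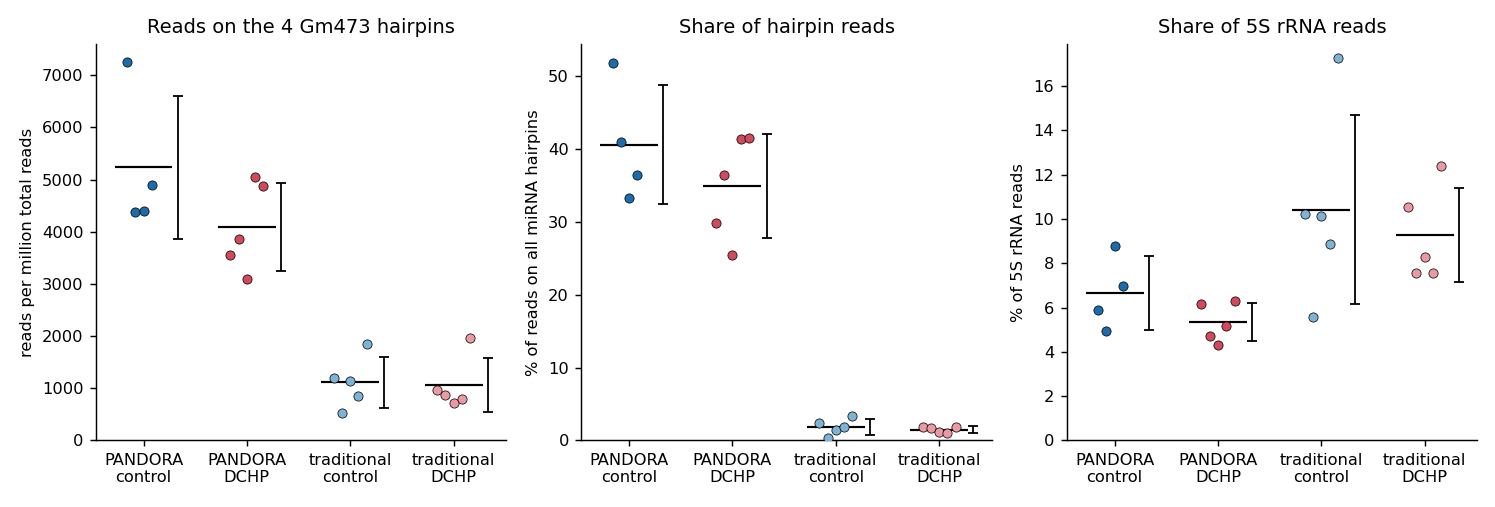
Reads on the 4 hairpins in each of the 19 libraries, per 1000000 total reads (left), as a percentage of reads on all miRNA hairpins (middle) and as a percentage of reads on the hairpins and 5S rRNA genes (right), with group means as lines and SD bars. The PANDORA-seq libraries lie between 3104 and 7263 RPM, above all traditional libraries. The mean share of 5S rRNA reads is lower in PANDORA-seq (5.92%) than in traditional RNA-seq (9.85%), with overlapping libraries.

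For the single hairpins, Gm47301 held 7251, 4381, 4395 and 4883 RPM in PANDORA-seq controls and 3549, 3858, 3097, 5042 and 4862 RPM in DCHP libraries. In traditional libraries it held 1180, 501, 1109, 829 and 1824 RPM in controls and 931, 840, 701, 771 and 1918 RPM after DCHP. Gm47285 ran from 3094 to 7244 RPM in PANDORA-seq and from 491 to 1893 RPM in traditional libraries. Gm47276 and Gm47281 held 3047 to 7182 RPM in PANDORA-seq and 331 to 1310 RPM in traditional libraries, where control replicate 5 (1310 RPM) lay above DCHP replicate 5 (915 RPM), the reverse of the order for Gm47301 and Gm47285. A read was counted for the hairpins it matched with fewest mismatches, so that an unchanged 5S read over position 5 counted for Gm47301 and Gm47285 and not for the identical pair.

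Most reads were longer than mature miRNAs, and the lengths formed separate peaks. In PANDORA-seq, mean length was 31.5 ± 0.972 nt (SD, n = 4) in controls and 31.6 ± 0.916 nt (n = 5) after DCHP, and in traditional RNA-seq it was 28.02 ± 1.15 nt and 26.9 ± 2.05 nt (n = 5 each). Reads of 20 to 24 nt made up 1.51% to 3.19% of reads in PANDORA-seq libraries and 10.9% to 20.4% in traditional ones. Reads of 15 to 19 nt, shorter than mature miRNAs, made up 1.75% to 5.46% in PANDORA-seq libraries and 8.01% to 28.4% in traditional ones, and the median length for Gm47276 and Gm47281 in traditional DCHP replicate 5 was 17 nt. Reads of 35 to 45 nt made up 20.1% to 38.5% in PANDORA-seq and 5.29% to 22.5% in traditional libraries. The leading length in PANDORA-seq was 27 nt, with 32.6% ± 10.6 of reads in controls and 33.5% ± 6.86 in DCHP libraries, followed by 33 nt with 11.3% ± 3.40 and 8.76% ± 2.99. In traditional controls the leading lengths were 33 nt (13.7% ± 8.00) and 26 nt (11.4% ± 2.16), and in traditional DCHP libraries 26 nt led with 16.5% ± 2.85. Reads stop at 45 nt in the deposited files, and 3.62% ± 1.096 and 5.46% ± 0.919 of the reads in PANDORA-seq control and DCHP libraries had this length, so longer fragments of the same origin cannot be seen.

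**Figure D2:**
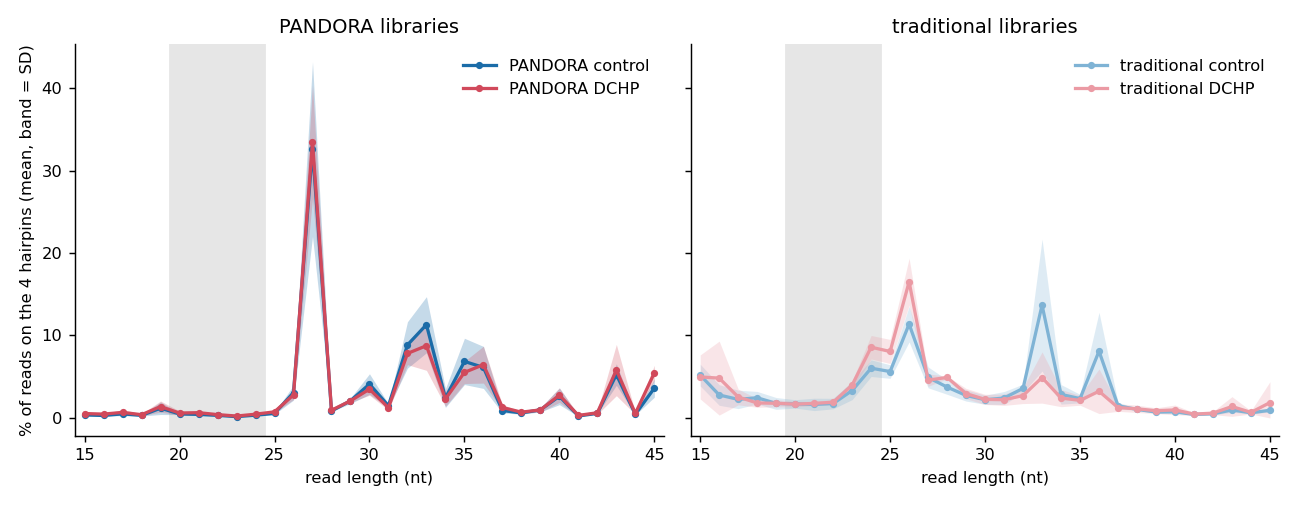
Length of reads on the 4 hairpins, as the percentage of reads at each length (nt) in PANDORA-seq (left) and traditional (right) libraries, with group means as lines and the SD as a band; grey marks 20 to 24 nt. The PANDORA-seq libraries peak at 27 nt (32.6% in controls) with further peaks at 33 nt and above, and the traditional libraries have a broader profile with peaks at 26 and 33 nt.

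A few 5′ ends held much of the reads, and their shares differed by method. In PANDORA-seq the leading 5′ end was hairpin position 24, which is base 56 of 5S rRNA, with 38.9% ± 12.53 (SD, n = 4) of reads in controls and 40.2% ± 8.30 (n = 5) after DCHP. In traditional libraries that end held 5.07% ± 1.95 and 6.27% ± 5.36 (n = 5 each). Position 8 was used in both methods, by 32.8% ± 7.92 and 29.5% ± 9.04 in PANDORA-seq and by 23.3% ± 13.6 and 8.99% ± 5.85 in traditional RNA-seq. Position 3 was used by 0.207% ± 0.0445 and 0.301% ± 0.0895 of reads in PANDORA-seq, and by 18.4% ± 2.97 and 28.03% ± 6.13 in traditional RNA-seq. The leading 3′ end in PANDORA-seq was position 50 (45.01% ± 10.6 and 48.3% ± 6.06), and in traditional RNA-seq position 40 led in controls (18.6% ± 9.93) and position 28 in DCHP libraries (19.7% ± 4.03). Traditional control and DCHP libraries overlapped at both positions. Position 40 held 6.10% to 32.1% in controls and 3.55% to 13.7% after DCHP, and position 28 held 9.79% to 15.9% and 14.4% to 25.1%. The 3′ ends were not tested.

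The reads that made these ends are shown with 5S base 62 in capitals where the read covers it, and each is named by its first and last base in 5S rRNA. They are the 5 sequences with the highest mean share in PANDORA-seq, the 3 among the leading 5 of traditional RNA-seq that are not already listed, and the commonest read with a changed base 62.
5S 56-82: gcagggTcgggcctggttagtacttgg
5S 40-72: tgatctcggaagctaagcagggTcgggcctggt
5S 40-75: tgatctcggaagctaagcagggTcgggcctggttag
5S 40-82: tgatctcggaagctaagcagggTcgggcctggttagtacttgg
5S 40-74: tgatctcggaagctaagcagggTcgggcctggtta
5S 35-60: tcgtctgatctcggaagctaagcagg
5S 35-58: tcgtctgatctcggaagctaagca
5S 35-59: tcgtctgatctcggaagctaagcag
5S 56-82 with T62A: gcagggAcgggcctggttagtacttgg
The 27 nt read 5S 56-82 alone made up 29.0% ± 9.52 (SD, n = 4) of reads on the hairpins in PANDORA-seq controls and 29.4% ± 5.95 (n = 5) in DCHP libraries, against 1.79% ± 0.777 and 0.92% ± 0.60 in traditional control and DCHP libraries. The 33 nt read 5S 40-72 made up 9.53% ± 2.83 and 7.11% ± 2.66 in PANDORA-seq and 9.36% ± 6.59 and 2.56% ± 2.11 in traditional RNA-seq. The 26 nt read 5S 35-60 was at 0.044% ± 0.019 and 0.055% ± 0.028 in PANDORA-seq and at 7.79% ± 1.82 and 12.1% ± 2.58 in traditional libraries. The 5 commonest sequences together held 52.5% of the hairpin reads in PANDORA-seq, out of 9059 distinct sequences, and 27.0% in traditional RNA-seq, out of 12714.

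On the 5S rRNA as a whole, the hairpin window ended within the deeply covered 3′ part. Of reads on 5S rRNA that touched the window, those that lay within it were 7.43% ± 2.22 (SD, n = 4) and 5.9997% ± 0.971 (n = 5) in PANDORA-seq control and DCHP libraries and 18.9% ± 4.19 and 15.7% ± 4.02 (n = 5 each) in traditional ones. Most of the others crossed the 3′ edge of the window, namely 82.7% ± 6.06 and 83.9% ± 4.40 in PANDORA-seq and 58.2% ± 7.45 and 62.3% ± 7.83 in traditional RNA-seq. The 36 nt read from base 84 to the 3′ end at base 119 made up 61.8% ± 9.42 of all 5S reads in PANDORA-seq controls and 56.5% ± 7.56 after DCHP, against 7.84% ± 1.75 and 10.48% ± 8.68 in traditional control and DCHP libraries. It starts inside the window and ends outside it, so it is not counted for any hairpin, and it begins just past base 82, where the leading hairpin read ends.

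**Figure D3:**
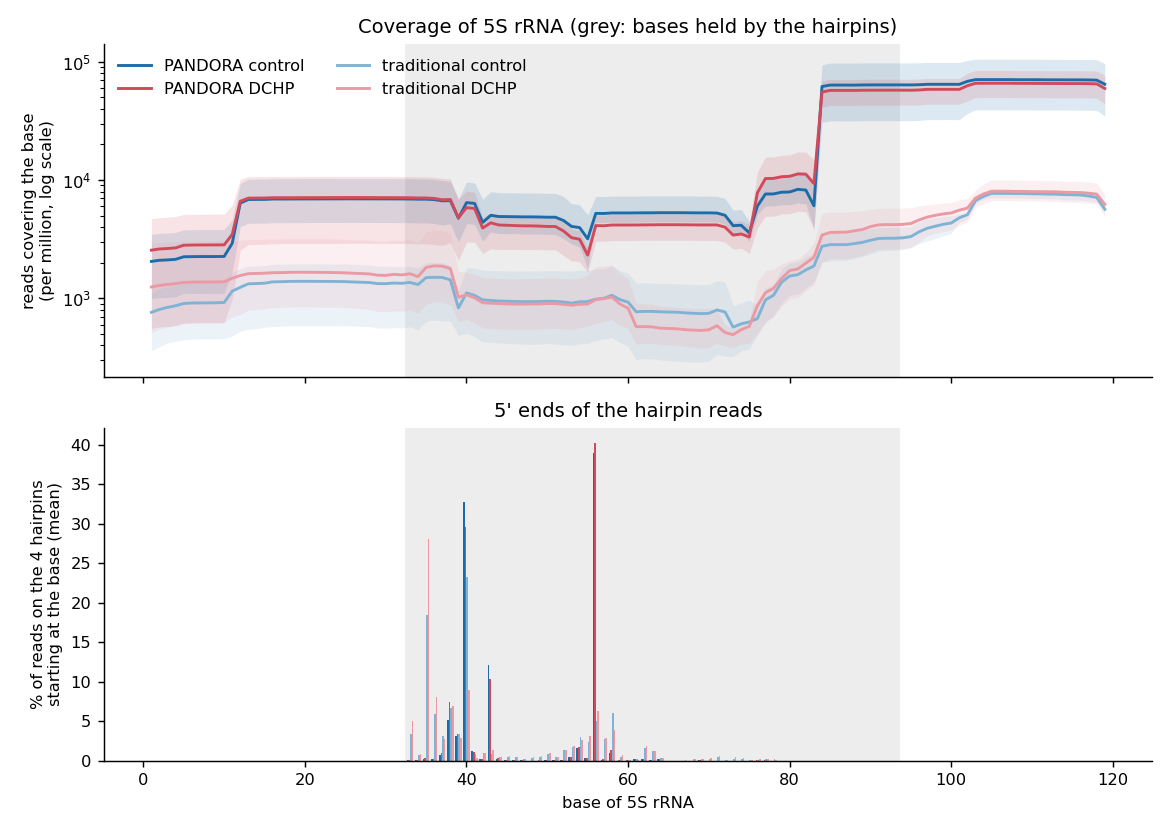
Top, reads covering each base of 5S rRNA (per 1000000 total reads, log scale) as group means with the range over libraries; bottom, percentage of reads on the 4 hairpins that start at each base (group means). Grey marks the bases of the hairpins. Coverage rises steeply at base 84 in PANDORA-seq. The 5′ ends gather most at bases 40 and 56 in PANDORA-seq and at bases 35 and 40 in traditional libraries.

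The most frequent mismatch to 5S rRNA was at a single base. Reads that differed from every hairpin by 1 base made up 9.66% ± 0.443 (SD, n = 4) and 10.4% ± 0.762 (n = 5) in PANDORA-seq control and DCHP libraries and 16.5% ± 0.892 and 14.9% ± 1.91 (n = 5 each) in traditional ones, and 87.4% to 92.3% of these differences, as group means, were inside the read and not at its ends. Only the first and last base count as ends, so most differences would lie inside even if spread evenly. As method means, the first and last base held 4.23% and 3.69% of the differences in PANDORA-seq and 6.72% and 5.57% in traditional RNA-seq. The change T62A, at hairpin position 30, was carried by 3.46%, 3.04%, 4.96% and 3.37% of the covering reads in PANDORA-seq controls and by 3.41%, 3.99%, 3.65%, 5.11% and 5.12% in PANDORA-seq DCHP libraries. In traditional controls it was carried by 2.96%, 3.59%, 3.23%, 2.81% and 2.40%, and in traditional DCHP libraries by 3.11%, 3.42%, 3.87%, 3.50% and 3.83%. It was thus present in every library at a few percent, with overlapping groups. At 5S bases 34 to 91 other than this one, the group means ran from 0.045% to 0.816%, over reads with at most 1 mismatch to 5S rRNA, the first and last base of each read left out. Base 92, hairpin position 60, is outside this range. Of 69 annotated 5S genes with both flanks of this base intact, 4 carry the A, namely n-R5s106, n-R5s118, Gm24312 and n-R5s130, which all lie between 123548956 and 123589772 on chromosome 8, and 64 carry the T. The changed 27 nt read was itself counted 1759 to 5866 times in each PANDORA-seq control library and 17 to 51 times in each traditional control library.

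**Figure D4:**
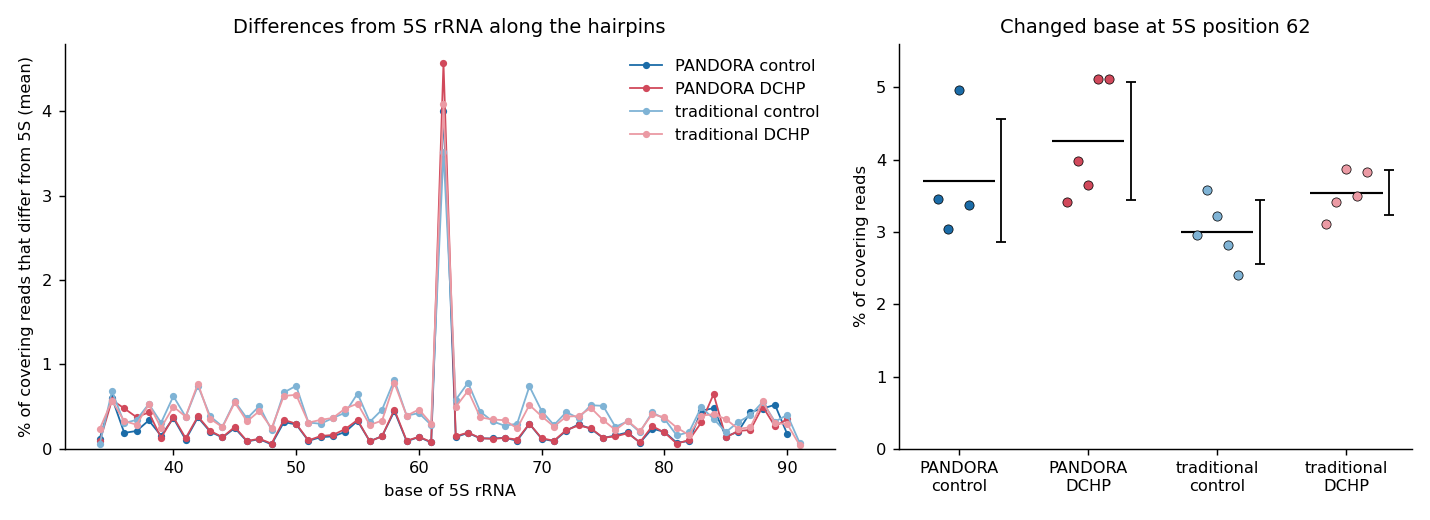
Left, percentage of covering reads on the hairpins that differ from 5S rRNA at each base (group means, libraries with at least 100 covering reads); right, percentage with the changed base at 5S position 62 in each library, with group means and SD bars. On the left, where any change inside a read counts, base 62 is the highest of the bases plotted in every group; on the right, the group means of T62A are 2.998% to 4.26%.

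For DCHP against control, the level of none of the 4 hairpins passed the threshold, set at a more than 2-fold difference with p under 0.1 after adjustment over all hairpins tested. In PANDORA-seq, where control libraries of Gm47301 ran from 4381 to 7251 RPM and DCHP libraries from 3097 to 5042 RPM, the log2 fold change of DCHP over control was −0.36 ± 0.22 (SE; edgeR quasi-likelihood test, adjusted p = 0.781). It was −0.36 ± 0.22 for Gm47285 (edgeR, adjusted p = 0.781) and −0.36 ± 0.23 for Gm47276 and Gm47281 (edgeR, adjusted p = 0.764). In traditional RNA-seq the log2 fold change was −0.08 ± 0.39 for Gm47301 and −0.08 ± 0.40 for Gm47285 (edgeR, adjusted p = 0.904 and 0.898). For Gm47276 and Gm47281 it was −0.45 ± 0.38 (edgeR, adjusted p = 0.446). By this rule 0% of the 549 hairpins tested in PANDORA-seq and 0% of the 866 tested in traditional RNA-seq were called, so that the count of 0 of 4 members equals the background; DESeq2 also called 0 hairpins in each method. At an unadjusted p below 0.05 edgeR had 21 of 549 hairpins for PANDORA-seq and 132 of 866 for the traditional method. DESeq2, which gave an adjusted p for 1996 and 2062 hairpins, had 49 and 94. By edgeR with total reads the 4 hairpins were not among them, whereas by DESeq2 Gm47276 and Gm47281 were in the traditional method (DESeq2, adjusted p = 0.834). The scaling moves the traditional values: the median log2 fold change of all hairpins was 0.39 by total reads and −0.17 with TMM. With TMM, Gm47301 was at −0.67 and Gm47285 at −0.68 (edgeR, adjusted p = 0.700 for both), and Gm47276 and Gm47281 were at −1.004 (edgeR, adjusted p = 0.700) and under 0.05 before adjustment. By DESeq2 the values were −0.62, −0.63 and −0.95. All stayed lower after DCHP, and none was called. The other hairpins with Gm names, a class of predicted genes without an official miRNA number, had a median log2 fold change of −0.01 (400 tested) in PANDORA-seq and 0.39 (429 tested) in traditional RNA-seq, against 0.01 and 0.39 over all hairpins tested, and 0 of them were called in either direction.

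Whether DCHP acted on the hairpins alike in both methods was tested as an interaction over all 19 libraries, taken as independent. It was −0.28 ± 0.51 on the log2 scale for Gm47301 (PANDORA-seq minus traditional; edgeR, adjusted p = 0.828), −0.28 ± 0.51 for Gm47285 (edgeR, adjusted p = 0.828) and 0.09 ± 0.50 for Gm47276 and Gm47281 (edgeR, adjusted p = 0.945). Of 988 hairpins, 0% passed; 121 were under 0.05 before adjustment. With TMM, which moved the median over all hairpins from −0.28 to 0.26, the values for Gm47301 and Gm47285 turned to 0.29 and 0.30 and that of Gm47276 and Gm47281 rose to 0.61 (edgeR, adjusted p = 0.668 for the pair). Same-numbered PANDORA-seq and traditional libraries were correlated, however (r from 0.20 to 0.62). With the number within exposure as a block, the values were −0.51 for Gm47301, −0.50 for Gm47285 and −0.22 for Gm47276 and Gm47281, and none was called. Control replicate 1 of PANDORA-seq and replicate 5 of each traditional group carried much of the values: without PANDORA-seq control replicate 1, Gm47301 in PANDORA-seq was at −0.16, and without traditional control replicate 5 or DCHP replicate 5, Gm47301 in traditional RNA-seq was at 0.19 or −0.43 on the log2 scale.

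Between DCHP and control libraries, no read feature passed an adjusted p of 0.05 in the 24 tests (4 hairpins, 3 features, 2 methods; two-sided exact permutation tests, whose smallest possible p is 0.00794 in both methods). For Gm47301 in PANDORA-seq, mean read length was 31.6 ± 0.976 nt in controls and 31.6 ± 0.919 nt after DCHP, a difference of 0.098 nt (exact permutation, p = 0.897, adjusted p = 0.897). The share of reads at the leading 5′ end, which over all 19 libraries was position 24 and leads in PANDORA-seq but not in traditional RNA-seq, was 39.0% ± 12.53 and 40.2% ± 8.32 (exact permutation, p = 0.857, adjusted p = 0.897), and the share with a mismatch 9.64% ± 0.442 and 10.4% ± 0.758 (exact permutation, p = 0.143, adjusted p = 0.571). In traditional RNA-seq, mean length of Gm47301 reads was 28.1 ± 1.13 nt and 26.9 ± 2.05 nt (exact permutation, p = 0.333, adjusted p = 0.897). The share with a mismatch was 15.7% ± 1.25 and 13.9% ± 1.91 (exact permutation, p = 0.119, adjusted p = 0.571). The other hairpins gave adjusted p-values from 0.571 to 0.897. The T62A share, which was chosen for a test after its values had been seen, was 3.71% ± 0.852 and 4.26% ± 0.811 in PANDORA-seq (exact permutation, p = 0.294, adjusted over both methods 0.294) and 2.998% ± 0.443 and 3.54% ± 0.314 in traditional RNA-seq (exact permutation, p = 0.0635, adjusted 0.127).

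The other 5′ ends in traditional RNA-seq were not tested. The 5′ end at position 3 was used by 14.7% to 22.0% of reads in the 5 controls and by 21.3% to 36.3% in the 5 DCHP libraries, and the 5′ end at position 8 by 5.96% to 43.4% and by 1.51% to 17.2%. Both pairs of ranges overlap. Over all 5′ ends, control and DCHP ranges did not overlap at 2 of 47 positions (4.26%) in each method, which is a description with no test. In traditional RNA-seq these were position 1, used by 2.61% to 4.14% of reads in controls and 4.37% to 6.01% in DCHP libraries, and position 27, used by 0.295% to 0.506% and 0.539% to 0.923%. In PANDORA-seq they were position 26, used by 0.773% to 1.15% and 1.27% to 1.44%, and position 31, used by 0.0655% to 0.0955% and 0.0960% to 0.113%. In traditional DCHP replicate 5 the mean length of reads on the hairpins was 23.7 nt, against 26.2 to 28.9 nt in the other DCHP libraries, and 5.29% of its reads were 35 to 45 nt long, against 11.3% to 22.5%.

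No relation of the level of the hairpins to rRNA, tRNA or miRNA reads across libraries passed an adjusted p of 0.05. There were 24 relations (4 hairpins, 3 measures, 2 methods), each with a Pearson and a Spearman coefficient, and the 48 permutation p-values were adjusted together. All measures share total reads as their denominator. The rRNA measure took in 5S, 5.8S, 18S and mitochondrial rRNA, and the tRNA measure took in 22 mitochondrial and 10 nuclear tRNA sequences, which is a small part of the 408 nuclear tRNA loci in RefSeq, so it is mostly a measure of mitochondrial tRNA. In the 9 PANDORA-seq libraries, Gm47301 had r = −0.23 and rho = −0.15 with rRNA reads (permutation over all pairings, p = 0.553 and 0.708, adjusted p = 0.886 for both), and r = −0.24 without the 2 libraries farthest from the median of rRNA. With tRNA reads it had r = −0.42 and rho = −0.45 (permutation, p = 0.263 and 0.230, adjusted p = 0.886), and r = −0.51 without the 2 farthest libraries. Reads on tRNA were higher in the PANDORA-seq DCHP libraries (2623 to 6736 RPM) than in the controls (786 to 2394 RPM), and with values centred within exposure r was −0.09. With miRNA reads it had r = 0.06 and rho = 0.15 (permutation, p = 0.846 and 0.708, adjusted p = 0.886), and r = −0.01 without the 2 farthest libraries.

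In the 10 traditional libraries, Gm47301 had r = −0.22 and rho = −0.21 with rRNA reads (100000 random pairings, permutation p = 0.564 and 0.565, adjusted p = 0.886), and r = −0.30 without the 2 farthest libraries. With tRNA reads it had r = 0.39 and rho = 0.18 (permutation, p = 0.278 and 0.632, adjusted p = 0.886), and r = 0.50 without the 2 farthest libraries. With miRNA reads it had r = −0.20 and rho = −0.16 (permutation, p = 0.572 and 0.655, adjusted p = 0.886), and r = −0.19 without the 2 farthest. Over the 4 hairpins r with rRNA ran from −0.23 to −0.22 in PANDORA-seq and from −0.22 to 0.04 in traditional RNA-seq, and r with tRNA from −0.43 to −0.42 and from 0.22 to 0.39. With exact matches only, r with rRNA in PANDORA-seq turned to 0.69 for each hairpin.

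Taking the rRNAs apart, which was decided after the overlap with 5S genes had been seen, gave relations of opposite sign for 5S and 18S rRNA. In PANDORA-seq, Gm47301 had r = 0.73 and rho = 0.50 with 5S reads outside the hairpins (permutation, p = 0.0318 and 0.178, adjusted over 64 p-values 0.344 and 0.483), and r = 0.49 without the 2 farthest libraries. With 18S reads it had r = −0.60 and rho = −0.60 (permutation, p = 0.0738 and 0.0968, adjusted 0.344 for both) and r = −0.50 without the 2 farthest. In traditional RNA-seq it had r = 0.61 and rho = 0.62 with 5S reads (permutation, p = 0.0652 and 0.0602, adjusted 0.344 for both), but r = 0.05 without the 2 farthest libraries, so that this relation rests on those libraries. With 18S reads it had r = −0.36 and rho = −0.27 (permutation, p = 0.312 and 0.448, adjusted 0.483 and 0.624) and r = −0.72 without the 2 farthest. The tRNAs also went apart in PANDORA-seq: Gm47301 had r = −0.44 and rho = −0.45 with mitochondrial tRNA reads (permutation, p = 0.248 and 0.230, adjusted 0.483 for both; r = −0.55 without the 2 farthest) and r = 0.42 and rho = 0.38 with nuclear tRNA reads (permutation, p = 0.265 and 0.313, adjusted 0.483 for both; r = 0.78 without the 2 farthest). In PANDORA-seq, mitochondrial tRNA reads held 422 to 1907 RPM in controls and 2010 to 6411 RPM after DCHP, without overlap. The relation with mitochondrial tRNA and exposure therefore cannot be told apart there. The separate rRNA and tRNA measures were not centred within exposure. In traditional RNA-seq r was 0.34 with mitochondrial and 0.22 with nuclear tRNA reads (permutation, p = 0.342 and 0.564, adjusted 0.506 and 0.722), and 0.17 and −0.31 without the 2 farthest. For Gm47276 and Gm47281 in the traditional libraries r was 0.36 with 5S and −0.13 with 18S reads. For the same pair it was 0.26 with mitochondrial and −0.06 with nuclear tRNA reads. None of these relations passed the adjustment.

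**Figure D5:**
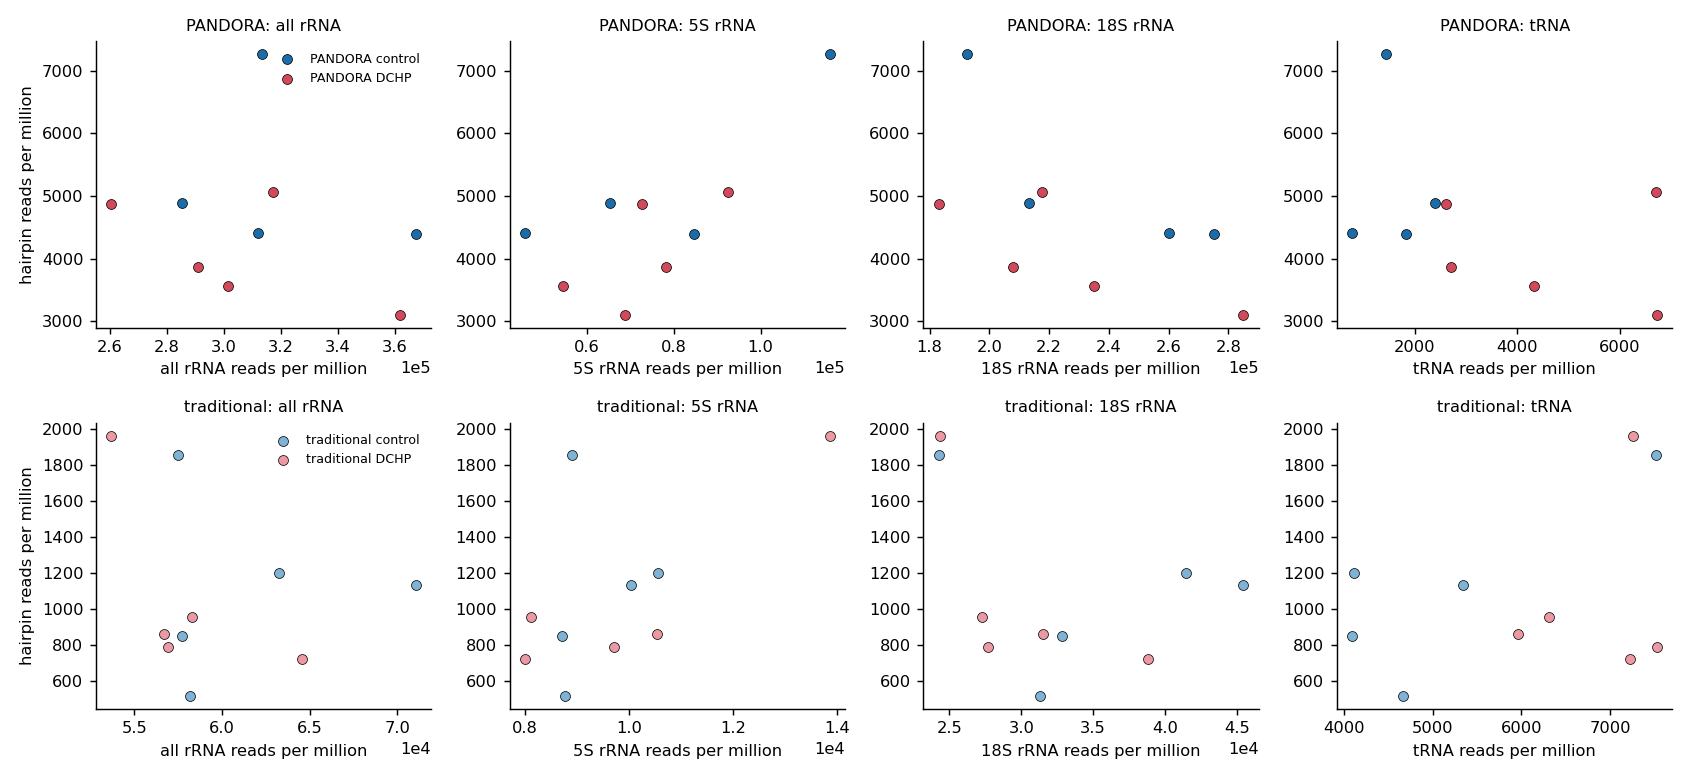
Reads on the 4 hairpins together against reads on all rRNA searched, on 5S rRNA outside the hairpins, on 18S rRNA and on tRNA (all per 1000000 total reads), in the 9 PANDORA-seq (top) and 10 traditional (bottom) libraries. PANDORA-seq control replicate 1 is highest on both axes of the 5S panel (7263 and 115970 RPM), as is traditional DCHP replicate 5 (1962 and 13852 RPM).

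Other hairpins show how the lengths compare with a miRNA. Mir148a, Mir122 and Mir10a, the canonical miRNAs with most traditional reads, had 99.3%, 96.0% and 94.7% of their reads at 20 to 24 nt. Over all 19 libraries pooled, as for these, Gm47301 had 4.67%, with 1.99% in PANDORA-seq and 15.8% in traditional libraries. Mir6240, another hairpin of unusual length, had 16.6% of pooled reads at 20 to 24 nt. At 35 to 45 nt it had 15.2% of pooled reads, against 26.4% for Gm47301. By method, the share at 35 to 45 nt was 29.0% for Gm47301 and 15.3% for Mir6240 in PANDORA-seq. In traditional RNA-seq it was 15.3% for Gm47301 and 14.6% for Mir6240. Mir6240 was the hairpin with most reads in PANDORA-seq. Its level was 6044 ± 1133 RPM (SD, n = 4) in PANDORA-seq controls and 6014 ± 1357 RPM (n = 5) after DCHP, and 866 ± 366 RPM and 659 ± 180 RPM (n = 5 each) in traditional libraries. Mir6236 had 29.8% at 20 to 24 nt and 46487 reads in all.

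The hairpins whose level over libraries was most like that of Gm47301 were Mir5126, Mir3473e and Gm25036, by the lower of the Pearson correlations of log2(RPM + 0.5) over the 9 PANDORA-seq and the 10 traditional libraries, among 347 other hairpins with at least 10 reads in every library. That lower correlation was 0.58 for Mir5126, 0.49 for Mir3473e and 0.44 for Gm25036, and the same 3 were most like Gm47285. For Gm47276 and Gm47281 they were Mir6937 (0.51), Mir5126 (0.47) and Gm23154 (0.42). These are descriptions over libraries that share a denominator, and the hairpins named are the highest of the 347. Mir3473e, Gm25036 and Gm23154 had only 170, 307 and 270 reads over the 9 PANDORA-seq libraries together. Mir5126 and Mir6937 had 1963 and 4636. Whether such likeness exceeds that expected from picking the highest values was not tested.

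The libraries were labelled as sperm, and miRNA markers of other cells were read in them. In traditional libraries the germ cell miRNAs of the Mir34b/c and Mir449 family summed to 87.2 to 463 RPM, those of epididymal epithelium (the Mir200 family) to 556 to 4465 RPM and those of smooth muscle (Mir143 and Mir145a) to 1366 to 6928 RPM. In PANDORA-seq the same lists summed to 0.925 to 6.48, 2.63 to 43.2 and 2.60 to 112 RPM. Red blood cell markers (Mir451a, Mir144 and Mir486) summed to 36.7 to 181 RPM in traditional libraries and 0.634 to 2.43 RPM in PANDORA-seq, and Mir122, the liver miRNA, ran from 783 to 70134 RPM and from 3.74 to 129 RPM. All members of these lists were read, and their part in the levels of the 4 hairpins was not tested.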

How the data were processed

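Small RNA libraries of mouse sperm were compared by exposure within each method. The deposited files list each distinct cleaned read of 15 to 45 nt with its read count, and these counts were not normalized; the trimming steps are not given in the sources used here. The labels name the build mm10. A size range of 15 to 50 nt was cut from the gel. The 4 hairpins and all lists were chosen with earlier results of these data known.

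Reads were matched without gaps to GENCODE transcripts (GRCm38): 2198 hairpins, 351 5S rRNA genes and other rRNAs, 22 mitochondrial and 10 nuclear tRNA sequences, and 3532 other small RNAs; no 28S rRNA sequence was used here. The full 5S rRNA sequence is not reported here. A hairpin match took precedence over rRNA and tRNA, and a read that matched several hairpins equally was counted for each. The matcher and the tests were checked on simulated data or against a direct search. Levels are reads per 1000000 total reads. DCHP and control were compared with edgeR 4.0.16 (quasi-likelihood test, filterByExpr, library size = total reads, Benjamini-Hochberg adjustment) and with DESeq2 1.42.0 as an alternative, in R 4.3.3; features and correlations used permutation tests in Python 3.11.15 with scipy 1.17.1 and numpy 2.4.6. A hairpin entered the feature tests with at least 100 reads in every library. Named beside the 4 members are the 3 hairpins most alike to each, Mir6240 and Mir6236 for their read lengths, and the 3 canonical hairpins with most traditional reads.

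The study describes its sperm libraries as biological replicates of mice; the labels name no animal for a library. All 36 pairs of libraries within groups differed beyond sampling noise. Same-numbered control and DCHP libraries had correlations from −0.31 to 0.33, above 0.1 in 2 of 4 PANDORA-seq and 1 of 5 traditional pairs. None of these pairs was most strongly correlated at its own number. Same-numbered PANDORA-seq and traditional libraries correlated above 0.1 in all 9 pairs (0.20 to 0.62). They did so most strongly with their own number in 2 of 4 control and 4 of 5 DCHP pairs. The test of the difference between methods was therefore repeated with the shared number within exposure as a block.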

Additional observations from a re-analysis of the deposited data

Results flagged for a closer look

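Of 108 sets of 4 or 5 libraries examined for a library far from the others of its group, 12 had one; about 1 in 20 would by chance, and the sets overlap, since the 4 hairpins share most of their reads. Traditional DCHP replicate 5 was the highest of its group for reads on the 4 hairpins together (1962 RPM, the others 724 to 958), for Gm47301 (1918 RPM, the others 701 to 931), for Gm47285 (1893 RPM, the others 687 to 907) and for Gm47276 and Gm47281 (915 RPM, the others 413 to 546). The same library had the highest share of reads that start at position 24, the leading 5′ end over all 19 libraries but not within the traditional ones, for Gm47301 (15.998%, the others 2.72% to 5.59%), Gm47285 (16.2%, the others 2.70% to 5.55%) and Gm47276 and Gm47281 (33.6%, the others 4.95% to 9.20%). PANDORA-seq control replicate 1 was the highest of its group for Gm47276 and Gm47281 (7182 RPM, the others 4346 to 4820). Traditional control replicate 2 had the most reads on hairpins with mostly 20 to 24 nt reads (166257 RPM, the others 42195 to 73512) and the lowest level of the 4 hairpins in its group.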

How the results depend on the processing

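None of the 4 hairpins was called under any alternative that gave a value: edgeR with TMM, with reads on all hairpins, on hairpins with mostly 20 to 24 nt reads or on 5S rRNA outside the hairpins as library size, without the low count filter, with exact matches, with sequences of at least 2 reads, with reads of 18 to 45 nt, with hairpins extended by up to 20 nt of their 5S gene, with the replicate block, without each library in turn, and DESeq2. Library size from 5S reads, the block across methods, the separate rRNA and tRNA measures and the T62A test were chosen after seeing the data. Over all hairpins in PANDORA-seq, 13 were called without the low count filter and 1 with exact matches, all higher after DCHP, against 0. Counting only reads particular to 1 hairpin or to no other gene left no value for the 4.

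With the replicate block, the log2 fold change of Gm47301 was −0.42 for PANDORA-seq and −0.06 for the traditional method. In PANDORA-seq this also left out DCHP replicate 5, which has no control of its number, so block and library cannot be told apart. The labels give same-numbered control and DCHP libraries no link but the number. The difference between methods, paired by number within exposure, was −0.51 for Gm47301, −0.50 for Gm47285 and −0.22 for Gm47276 and Gm47281, the last reversed. No call changed.

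Other values that changed sign had not passed a test, and the cause was not tested. With TMM the difference between methods was 0.29 for Gm47301, 0.30 for Gm47285 and 0.61 for the identical pair, whose sign did not change. With reads of 18 to 45 nt the DCHP minus control difference in the share of 5′ ends at position 24 in traditional RNA-seq was −1.70, −1.77 and −1.17 percentage points for Gm47301, Gm47285 and the identical pair Gm47276 and Gm47281. With exact matches r with rRNA was 0.69 for each hairpin in PANDORA-seq and 0.042 and 0.048 for Gm47301 and Gm47285 in traditional RNA-seq, and r with miRNA in PANDORA-seq was −0.0012, −0.0024 and −0.0010. Centred within exposure, r of Gm47276 and Gm47281 with rRNA in traditional RNA-seq was −0.10, and r of Gm47301 with tRNA in PANDORA-seq went from −0.42 to −0.09.

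Leaving out each library in turn gave ranges that crossed 0, here for Gm47301, Gm47285 and the identical pair in this order. The traditional log2 fold change ran from −0.43 to 0.19 and from −0.44 to 0.19 for the first and second, and the difference between methods from −0.55 to 0.068, −0.54 to 0.081 and −0.19 to 0.33. In PANDORA-seq the difference in mean length ran from −0.374 to 0.359, −0.374 to 0.358 and −0.364 to 0.362 nt, and in the share at position 24 from −2.21 to 7.25, −2.20 to 7.26 and −2.05 to 7.54 points. In traditional RNA-seq the share at position 24 ran from −1.17 to 2.15, −1.22 to 2.14 and −0.691 to 6.46 points, and mean length of the pair from −2.34 to 0.192 nt. For PANDORA-seq r with rRNA ran from −0.44 to 0.033, −0.44 to 0.034 and −0.43 to 0.041, and with miRNA from −0.099 to 0.61, −0.0999 to 0.61 and −0.098 to 0.61. For traditional RNA-seq r with rRNA ran from −0.39 to 0.079, −0.39 to 0.083 and −0.18 to 0.24, with miRNA from −0.49 to 0.39, −0.48 to 0.395 and −0.41 to 0.083, and with tRNA for the pair from −0.12 to 0.38. In traditional RNA-seq, leaving out DCHP replicate 5, and no other library, turned the share at position 24 of each hairpin and the mean length of the pair.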
